A study of Sus scrofa with 4 samples.

Results

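The ETS family of transcription factors was followed through 10 of its members, ELF3, ELF1, ELK3, ERG, FLI1, ETS1, ETS2, ETV1, ETV4 and ETV5, in RNA sequencing of porcine fetal fibroblasts. They were found by their symbol in the deposited count files, which hold 1 row for each of the 10 among 35670 genes, and all 10 had enough reads to be tested. The genes were chosen by family with the fold changes of this comparison already known, so that their own fold changes and the counts of those past the threshold are a description, given without p-values, and support nothing. The study set out to raise BRG1, the ATPase of the BAF chromatin remodelling complex, in these cells, which serve as donors for cloned pig embryos. All 4 libraries came from skin fibroblasts labelled PFFs and kept under serum starvation. Of these, 2 are controls labelled WT (pTK-642) and 2 carry the genotype label BRG1-overexpressed (pTK-642-BRG1); the name pTK-642 stands in the titles of both groups without explanation, so whether the controls hold a vector is not known. Neither the age of the fetuses nor the number of animals, clones or cultures is given, so that the spread between the 2 libraries of a group may be technical.

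ETS factors share a DNA-binding domain that recognises a GGA core, and differ in the parts around it, in the partners they bind and in the cells that make them. Many of them receive the RAS to ERK signal: ELK3 sits with SRF on serum response elements, ETS1 and ETS2 are phosphorylated through their pointed domain, and ETV1, ETV4 and ETV5, the PEA3 group, are made in response to fibroblast growth factors and are removed through the ubiquitin ligase COP1. ERG and FLI1 are close relatives best known from endothelial and blood-forming cells, whereas ELF3 is best known from epithelia and, in stromal cells, as a gene induced by inflammatory cytokines.

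Reads assigned to genes numbered between 34486400 and 38126860 per library. Levels are given as CPM, reads of a gene scaled to a common library total with TMM factors, as mean ± SD over 2 libraries, and differences as log2 fold changes of the BRG1-labelled libraries over the controls with their standard error (SE). SMARCA4, which encodes BRG1, did not check the label: it had 154 and 179 CPM in the controls and 160 and 163 CPM in the BRG1-labelled libraries (log2 fold change -0.04 ± 0.11; adjusted p = 0.765 by edgeR, Benjamini-Hochberg over all genes tested), and every direction below is therefore one between libraries as labelled. Its log2 fold change was -0.15 without control 1 and 0.048 without control 2. With a library left out, the spread comes from the other group's pair alone, and the BRG1-labelled pair lay closer together than the controls. Whether a gene passes the threshold in such a fit, here and below, therefore says little about the group left with 1 library. Reads outside annotated genes made up 6.11% and 7.34% in the controls and 10.3% and 10.5% in the BRG1-labelled libraries, and the log2 fold change increased with the genomic span of genes (Spearman's rho 0.29; the points are genes, which are no replicates). Their part in the results was not tested. Log2 fold changes with the span trend removed are given in the text for some genes only, and silence on a gene does not mean that its value stayed the same. Removing the trend moved ELK3 from -0.77 to -0.91 and ETV5 from -0.03 to -0.15. It moved MAPK3 from -0.52 to -0.29 and ELK1 from -0.52 to -0.42. The plot of the 10 ETS genes under all analysis settings prints the value for each of them.

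ELF3 had the lowest log2 fold change of the 10 genes (ENSSSCG00000010922; Sscrofa11.1 chromosome 10, 24237852 to 24242266). It had 1501 and 1160 reads in controls 1 and 2, and 211 and 196 reads in BRG1-labelled libraries 1 and 2. In CPM these were 42.9, 36.1, 5.38 and 5.24, so that both controls lay far above both BRG1-labelled libraries. The mean went from 39.5 ± 4.77 to 5.31 ± 0.10 CPM (SD, n = 2), a level 7.44-fold lower with a log2 fold change of -2.90 ± 0.15 (SE). Counted from the lowest log2 fold change, it was gene 59 of 14617 tested. Under 13 other analysis settings the value lay between -3.03 and -2.60. In bulk RNA, fewer cells that make a transcript and less of it per cell cannot be told apart, for ELF3 and for each gene below.

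ERG had the highest log2 fold change of the 10 genes (ENSSSCG00000022318; chromosome 13, 201999237 to 202302572). Controls 1 and 2 had 18.5 and 23.6 CPM, and the BRG1-labelled libraries 65.0 and 63.9 CPM, from 647, 757, 2551 and 2390 reads. The groups did not overlap, and the spread was wider between the controls than between the BRG1-labelled libraries. From 21.0 ± 3.60 to 64.4 ± 0.84 CPM (SD, n = 2) the level was 3.07-fold higher (log2 fold change 1.62 ± 0.13 SE). ERG spans 303 kb, and the log2 fold change was 1.30 with the span trend removed, the lowest of 13 settings, and 1.84, the highest, with scaling by library size alone.

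FLI1, the relative of ERG, was close to the limit of detection in these cells (ENSSSCG00000015237; chromosome 9, 55612905 to 55749784). It had 19 and 34 reads in the controls and 10 and 6 reads in the BRG1-labelled libraries, or 0.54, 1.06, 0.26 and 0.16 CPM. Both controls were above both BRG1-labelled libraries, but the log2 fold change of -1.92 had an SE of 0.76 and ran from -1.39 without control 2 to -2.34 without control 1. ERG and FLI1 therefore differed both in reads and in the sign of their log2 fold change in the same libraries.

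**Figure D1:**
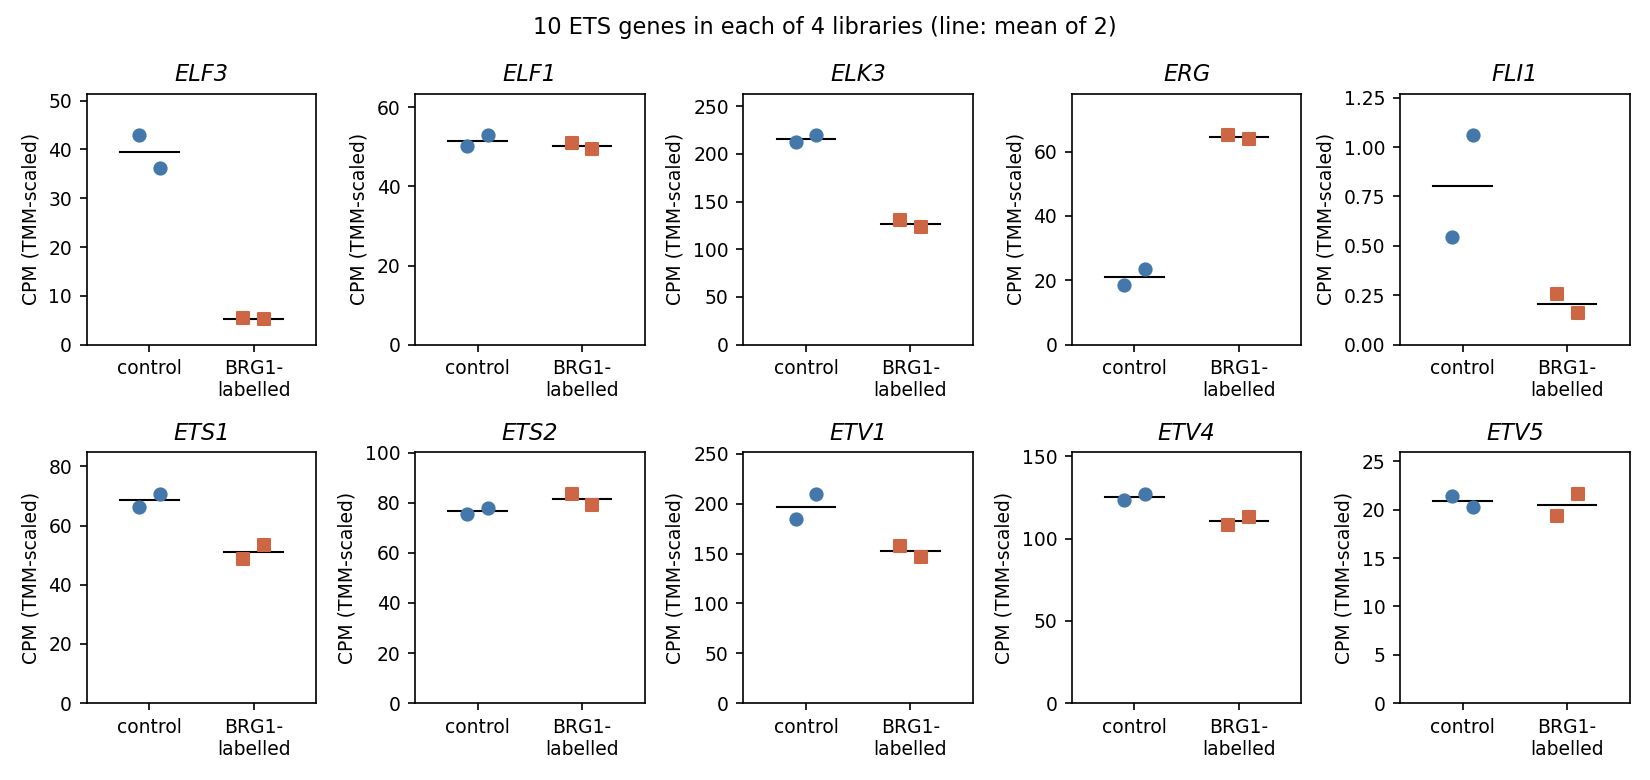
TMM-scaled CPM (vertical axes, each from 0) of 10 ETS genes in 2 control libraries (circles) and 2 BRG1-labelled libraries (squares), with the mean of each group as a line. The mean of ELF3 is 39.5 CPM in controls and 5.31 in BRG1-labelled libraries, that of ERG 21.0 and 64.4 CPM, while ELF1 and ETV5 overlap between groups.

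ELK3, also called NET, is a ternary complex factor that represses SRF targets until ERK phosphorylates it (ENSSSCG00000023803; chromosome 5, 87285237 to 87355201). Its reads numbered 7432 and 7049 in the controls and 5126 and 4616 in the BRG1-labelled libraries. On the CPM scale these were 212, 220, 131 and 123, with both controls above both BRG1-labelled libraries and a gap far wider than the spread within a group. The mean was 216 ± 5.11 in controls and 127 ± 5.22 in BRG1-labelled libraries, 1.70-fold lower (log2 fold change -0.77 ± 0.10). In CPM, the difference of -88.9 was the largest of the 10 genes in size.

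ETS1 and ETS2, the founding pair of the family, took different values from each other. ETS1 (ENSSSCG00000015235; chromosome 9, 55377264 to 55512180) had 66.3 and 70.7 CPM in the controls and 48.6 and 53.5 CPM in the BRG1-labelled libraries. The 2 groups did not overlap, and the log2 fold change was -0.43 ± 0.11. With scaling by library size alone it was -0.20, and with the span trend removed -0.68. ETS2 (ENSSSCG00000038948; chromosome 13, 202464341 to 202483534) had 75.6, 77.9, 83.6 and 79.1 CPM in the same order. Its BRG1-labelled libraries lay just above its controls, with a log2 fold change of 0.08 ± 0.10 and a 95% interval from -0.13 to 0.30.

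Within the PEA3 group the values were graded. ETV1 (ENSSSCG00000024591; chromosome 9, 83322818 to 83567136) had 184 and 210 CPM in the controls and 158 and 147 CPM in the BRG1-labelled libraries. Its groups did not overlap, although its controls differed from each other by about as much as the nearest libraries of the groups did, and its log2 fold change was -0.37 ± 0.11. ETV4 (ENSSSCG00000017379; chromosome 12, 19531507 to 19548303) had 123 and 127 CPM against 108 and 113 CPM, with a log2 fold change of -0.18 ± 0.10 that was 0.04 with scaling by library size alone. ETV5 (ENSSSCG00000023229; chromosome 13, 123873346 to 123930292) had 21.4 and 20.3 CPM in the controls and 19.3 and 21.6 CPM in the BRG1-labelled libraries, so that the groups overlapped (log2 fold change -0.03 ± 0.14; 95% interval -0.32 to 0.26). ETV1 spans 244 kb and had a log2 fold change of -0.68 with the span trend removed.

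ELF1, a widely made factor first described in lymphocytes, was about level (ENSSSCG00000009440; chromosome 11, 25772090 to 25896613). It had 50.2 and 52.9 CPM in the controls and 51.0 and 49.4 CPM in the BRG1-labelled libraries, which overlapped. The log2 fold change was -0.04 ± 0.11, with a 95% interval from -0.26 to 0.19. With the span trend removed it was -0.28, and with library size alone 0.19. In the RefSeq table of the same build ELF1 overlaps WBP4 by 466 bases; the strand setting of the counting is not known, so reads in that stretch cannot be assigned with certainty.

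Counted over the 10 genes at an adjusted p of 0.05 (edgeR), ERG was higher and ELF3, ELK3, ETS1 and ETV1 were lower, beside 21.0% of all 14617 genes tested that were higher and 23.6% that were lower (44.6% in either direction). Since the genes were chosen with these fold changes in view, nothing is read from those counts. The groups did not overlap in 8 of the 10, beside 73.2% of all genes tested. The median log2 fold change of the 10 was -0.28, against 0.02 over all genes tested. The counts moved with the setting: ETS1 was not counted with library size alone and without BRG1-labelled library 1, nor ETV1 with library size alone, with upper quartile scaling and with either BRG1-labelled library left out. The count of lower genes was 2 with library size alone, where ETS2 was counted as higher, 2 without BRG1-labelled library 1, 5 with either control left out, where ETV4 joined it, and 6 with the span trend removed, where ELF1 and FLI1 joined it.

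**Figure D2:**
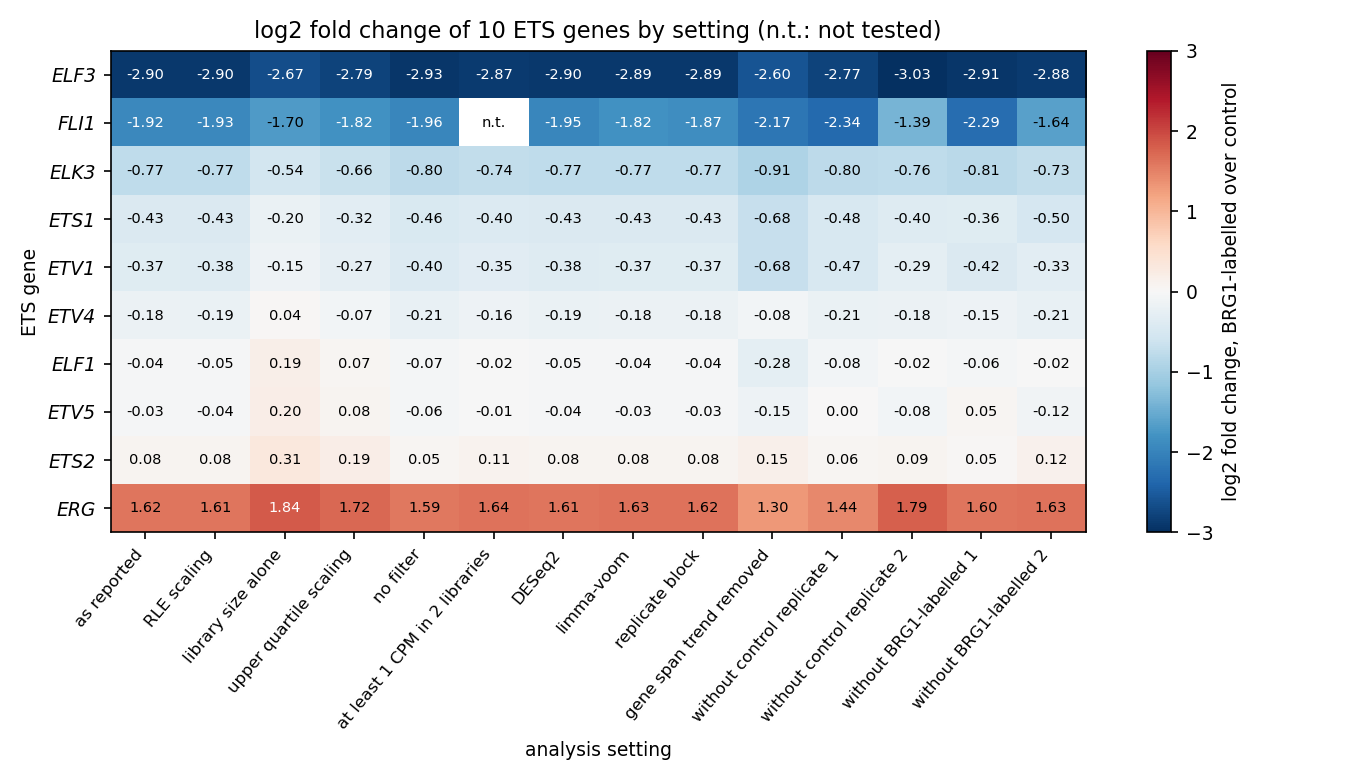
Log2 fold change (colour and printed value, BRG1-labelled over control) of 10 ETS genes (rows) under the reported analysis and 13 alternatives (columns). ELF3 stays between -3.03 and -2.60 and ERG between 1.30 and 1.84, whereas ETV4, ELF1 and ETV5 change sign between columns.

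Summed over the 10 genes, the level was 796 and 839 CPM in the controls and 670 and 656 CPM in the BRG1-labelled libraries, and the groups did not overlap. The mean sum went from 817 ± 30.7 to 663 ± 9.89 CPM (SD, n = 2), a difference of -155. ELK3 with -88.9, ETV1 with -44.8, ELF3 with -34.2, ETS1 with -17.5 and ETV4 with -14.7 CPM made up nearly all of the lower side, and ERG with 43.4 CPM the largest part of the other side. A sum of CPM gives long transcripts more weight, and no transcript lengths were used here.

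Ratios of reads within a library do not depend on how libraries are scaled. For each read of ELF1 there were 0.854 and 0.683 reads of ELF3 in the controls, and 0.105 and 0.106 in the BRG1-labelled libraries. ELK3 gave 4.23 and 4.15 reads per read of ELF1 in the controls and 2.56 and 2.50 in the BRG1-labelled libraries. ERG gave 0.244 and 0.303 reads per read of its neighbour ETS2 in the controls and 0.778 and 0.807 in the BRG1-labelled libraries. These ratios thus separated the groups by far more than the libraries of a group differed. Per read of ETS1, ERG went from 0.279 and 0.333 to 1.34 and 1.19, and ETS1 per read of ETS2 from 0.877 and 0.908 to 0.581 and 0.676. In the PEA3 group the ratios moved less: ETV1 per read of ETV4 was 1.49, 1.65, 1.46 and 1.30, and ETV5 per read of ETV4 was 0.174, 0.160, 0.178 and 0.192. A ratio shows that 2 genes changed unequally and not which of them changed.

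**Figure D3:**
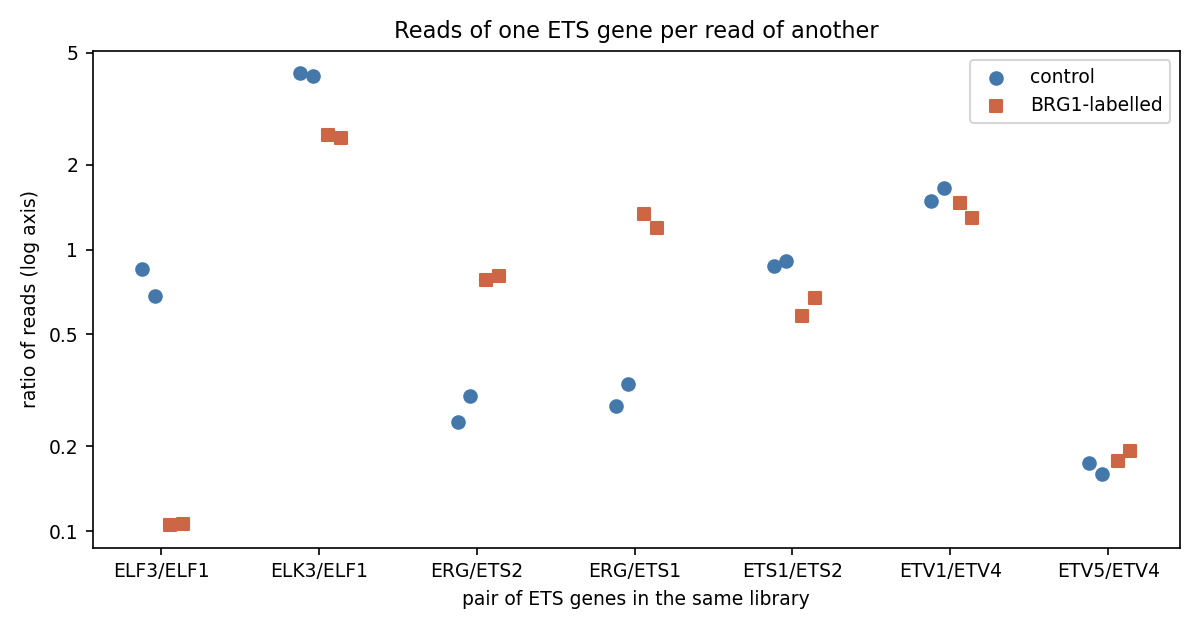
Reads of one ETS gene per read of another in the same library (log axis), for 7 pairs, in controls (circles) and BRG1-labelled libraries (squares). ELF3 per ELF1 goes from 0.854 and 0.683 down to 0.105 and 0.106, and ERG per ETS2 from 0.244 and 0.303 up to 0.778 and 0.807.

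The rest of the ETS family was read from the same fit. Of 18 further family symbols 17 were in the files and 13 had enough reads to be tested; ELF5, FEV and SPDEF had 0 reads in every library and SPIB 2 reads in all. Of the 13, 4 fell (30.8%, against 23.6% of all genes) and 0 rose in edgeR (against 21.0% of all genes). Rises numbered 1 at an unadjusted p under 0.05 in edgeR, 0 in DESeq2 and 0 in limma-voom. The median log2 fold change of the 13 was 0.07. EHF, a close relative of ELF3 and likewise an epithelial factor, fell from 4.01 ± 1.55 to 0.85 ± 0.16 CPM on 102, 164, 29 and 36 reads (log2 fold change -2.23 ± 0.39, adjusted p = 0.000315, edgeR). The controls of EHF differed from each other by more than 1.5 times, and both still lay above both BRG1-labelled libraries. ETV7, a repressor related to ETV6 and induced by interferon, fell from 13.2 ± 1.78 to 4.53 ± 0.77 CPM (-1.54 ± 0.20; adjusted p = 1.56e-05, edgeR). ERF, a repressor that leaves the nucleus when ERK phosphorylates it, fell from 72.3 ± 4.44 to 41.8 ± 0.28 CPM (-0.79 ± 0.11; adjusted p = 2.55e-05, edgeR). ELK1, a ternary complex factor like ELK3, fell from 44.6 ± 2.34 to 31.1 ± 0.07 CPM (-0.52 ± 0.11; adjusted p = 0.00178, edgeR), though without BRG1-labelled library 1 it no longer passed.

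The third ternary complex factor, ELK4, had a log2 fold change of 0.21 ± 0.15 and did not pass (adjusted p = 0.286, edgeR). The other 8 that did not pass included GABPA, which drives genes of mitochondrial function, at 0.08 ± 0.12, and SPI1, the myeloid factor PU.1, at -1.11 ± 0.63 on 55, 26, 14 and 28 reads. The count of rises among the 13 depended on the scaling and on control 2: ELF4, ETV6, ETV3 and ELK4 rose with library size alone, ETV6 and ETV3 with upper quartile scaling, ETV3 with the span trend removed, and ELF4 and ELK4 without control 2. Library size alone moved the median of all genes by 0.23 and upper quartile scaling by 0.11 on the log2 scale.

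**Figure D4:**
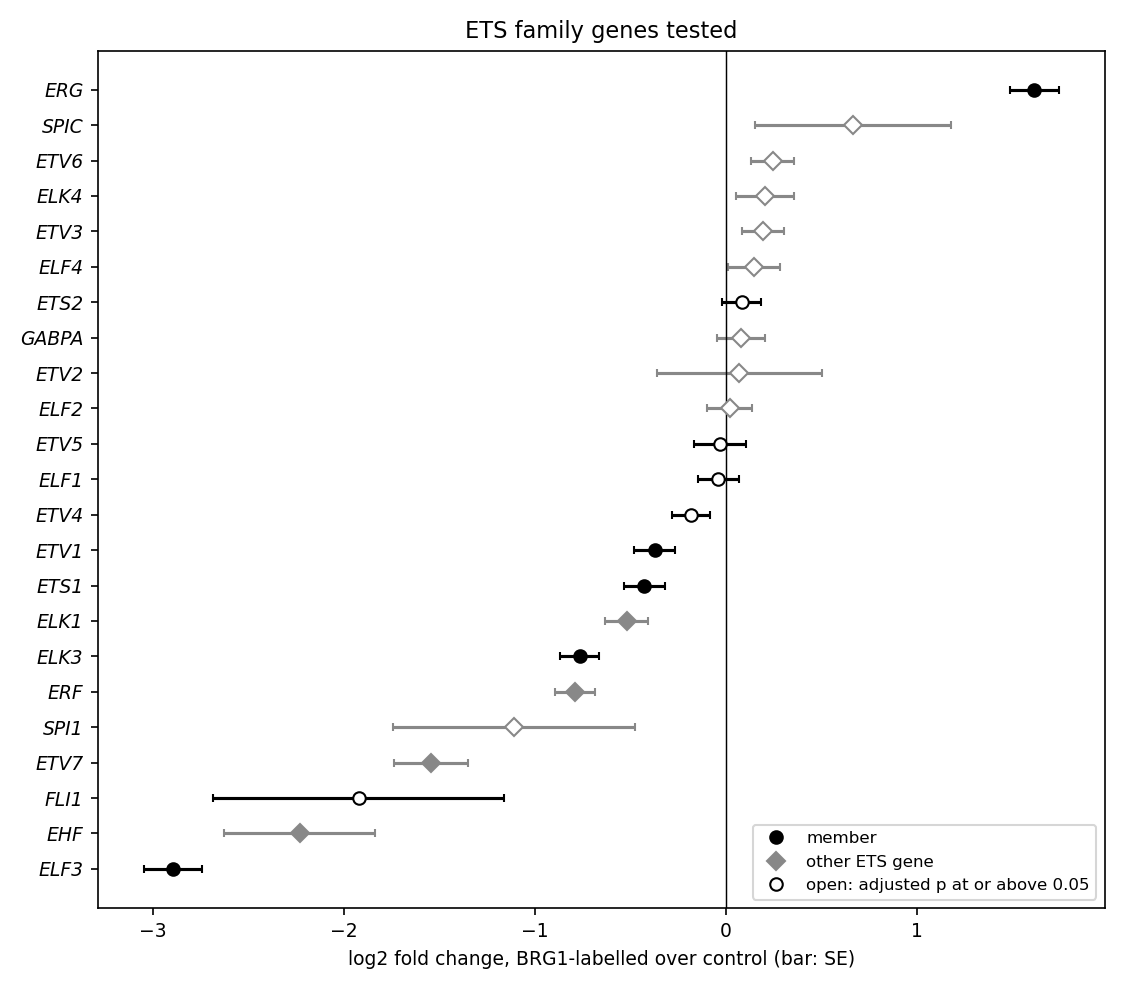
Log2 fold change with SE (horizontal axis) of the 23 ETS family genes tested, with the 10 described above as circles and the other 13 as diamonds; filled symbols have an adjusted p under 0.05. ERG at 1.62 is the one filled symbol on the right, and ELF3 at -2.90 and EHF at -2.23 lie at the left end.

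Partners and regulators of ETS factors changed in both directions. Of 17 tested 4 rose and 2 fell, 35.3% against 44.6% of all genes, with a median log2 fold change of 0.07. MRTFB, which activates SRF when actin polymerises and competes there with ternary complex factors such as ELK3, rose from 17.5 ± 2.67 to 36.9 ± 0.59 CPM (1.08 ± 0.14; adjusted p = 1.74e-05, edgeR). RUNX1, which binds DNA together with ETS1, rose from 62.6 ± 5.36 to 96.4 ± 1.65 CPM (0.62 ± 0.10; adjusted p = 0.000207, edgeR). DAXX, a histone chaperone and transcriptional corepressor that binds ETS1, fell by 0.69 ± 0.10 on the log2 scale (adjusted p = 9.21e-05, edgeR). The AP-1 subunits, which join ETS factors on composite sites, parted: FOS rose (0.88 ± 0.15; adjusted p = 0.000285, edgeR) and JUN fell (-0.54 ± 0.11; adjusted p = 0.000738, edgeR), the latter not with the span trend removed (-0.11) nor without BRG1-labelled library 1.

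Also among the partners and regulators, COP1, DET1 and CIC did not pass the test, while ATXN1L rose (0.59 ± 0.12, adjusted p = 0.0012, edgeR). COP1 and DET1, of the ligase that removes ETV1, ETV4 and ETV5, had log2 fold changes of -0.05 ± 0.12 and -0.08 ± 0.18, and CIC, which represses their genes, of -0.01 ± 0.12. SRF, the partner of ELK3, was at 0.17 ± 0.11. The controls disagreed on CIC, whose log2 fold change was -0.20 without control 1 and 0.18 without control 2. Without control 2 the number of partners and regulators that passed was 12, and with library size alone 10, in place of 6.

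The kinase cascade that acts on ETS factors was also mixed. Of 18 genes tested 5 rose (27.8%, against 21.0% of all genes) and 7 fell (38.9%, against 23.6%), with a median of -0.07. Falls included the adaptor GRB2, from 128 ± 14.4 to 78.0 ± 1.74 CPM (-0.71 ± 0.11; adjusted p = 7.69e-05, edgeR), and the kinases ARAF (-0.59 ± 0.10), MAP2K2 (-0.66 ± 0.11) and MAPK3, which is ERK1 (-0.52 ± 0.10). The 5 rises were small, with BRAF the largest at 0.41 ± 0.12, and 0 of them passed without BRG1-labelled library 1 or without library 2; the falls then numbered 6 and 4, and MAPK3 no longer passed without library 2. With library size alone the rises numbered 8 and with the span trend removed 1.

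Genes that ERK signalling is known to induce passed in 13 of 16 cases (81.2%, against 44.6% of all genes), 5 of them higher and 8 lower, with a median of -0.29. FOSL1, an AP-1 subunit, fell from 62.9 ± 1.77 to 21.0 ± 1.61 CPM (-1.58 ± 0.12; adjusted p = 6.41e-08, edgeR), IER3, an early response gene, from 2086 ± 234 to 786 ± 48.7 CPM (-1.41 ± 0.12), and the ephrin receptor EPHA4 from 13.7 ± 2.94 to 4.97 ± 0.57 CPM (-1.46 ± 0.20). DUSP6, the phosphatase that turns ERK off, rose from 54.2 ± 3.29 to 92.4 ± 5.31 CPM (0.77 ± 0.11; adjusted p = 3.19e-05, edgeR), and CCND1, cyclin D1, by 0.90 ± 0.13. ETV4 and ETV5, outputs of the same signal by textbook knowledge, had log2 fold changes of -0.18 and -0.03 beside these. With either BRG1-labelled library left out, 3 genes of the list rose, in place of 5, and 7 fell.

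Stromal genes described as regulated by ETS factors passed in 15 of 16 cases (93.8%, against 44.6% of all genes), 4 higher and 11 lower (median -1.47). This list holds cytokine-induced and matrix genes whose direction in these libraries was known when it was drawn up, so its counts are no independent evidence. The collagenase MMP1 went from 3920 ± 363 to 788 ± 17.8 CPM, the chemokine CXCL8 from 17840 ± 2120 to 3189 ± 40.7, IL6 from 2110 ± 163 to 455 ± 16.0, and NOS2, inducible nitric oxide synthase, from 3.45 ± 0.13 to 0.71 ± 0.24. CCN2, a matricellular growth factor, and the type I collagen chains COL1A1 and COL1A2 were among the 4 that rose, at 2.21 ± 0.12, 1.04 ± 0.13 and 0.95 ± 0.13 on the log2 scale. The urokinase gene PLAU did not pass (-0.21 ± 0.10). Which of these genes ELF3, ERG or any other ETS factor bound in these cells was not measured.

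**Figure D5:**
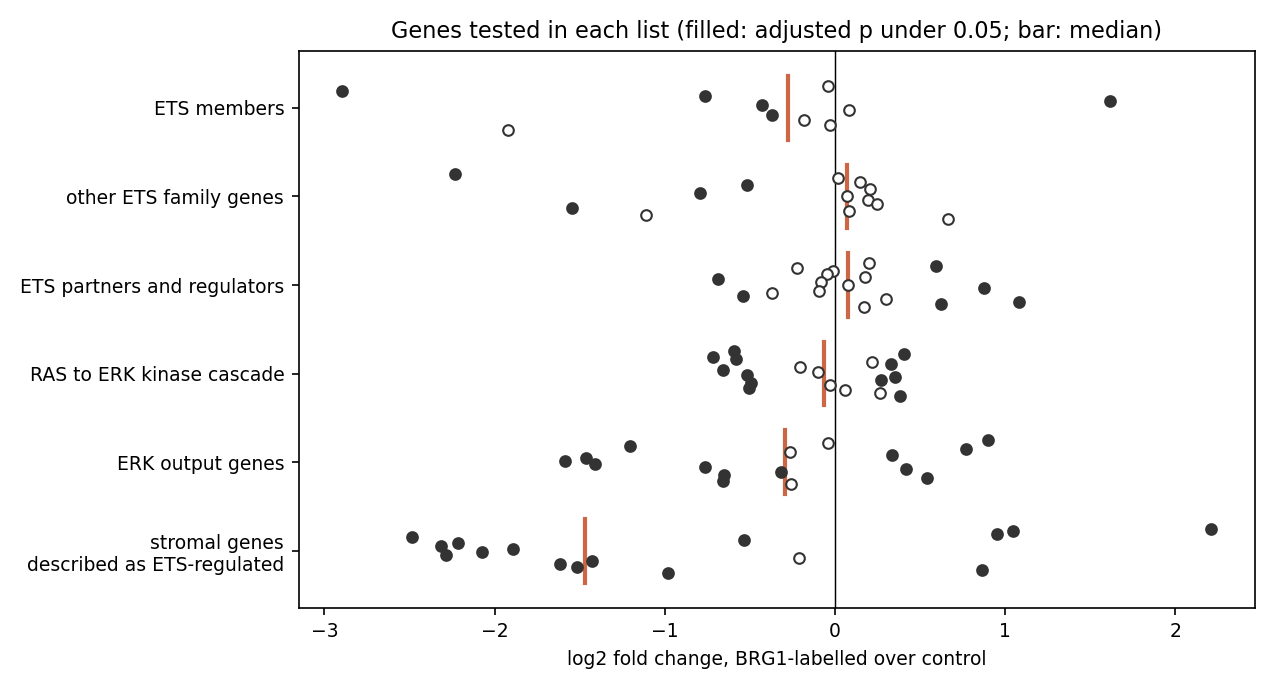
Log2 fold change (horizontal axis) of each gene tested in 6 lists; filled points have an adjusted p under 0.05 and the bar is the list's median. The medians run from 0.07 for partners and regulators and for the other ETS genes to -1.47 for the stromal genes.

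Markers of cell types known for ERG, FLI1, ELF3 and SPI1 were read in the same libraries. Of 16 epithelial markers in the files 5 (KRT5, KRT8, KRT15, GRHL2 and ST14) had 0 reads in every library, and their summed level was 2.80 and 1.56 CPM in the controls and 1.25 and 2.81 CPM in the BRG1-labelled libraries. ELF3, at 42.9 and 36.1 CPM in the controls, was thus present with defining epithelial markers at or near 0. Markers with too few reads to be tested went both ways. In controls 1 and 2 and BRG1-labelled libraries 1 and 2, CDH1 had 0, 0, 2 and 33 reads. ESRP1 had 1, 0, 4 and 6 and ESRP2 1, 1, 6 and 25, whereas CLDN3 had 12, 4, 0 and 0. Of the 2 tested, EPCAM fell on 14, 20, 3 and 1 reads (adjusted p = 0.0162, edgeR; not with no filter, without control 2, nor with either BRG1-labelled library left out). The count of rises in this list was 2 without BRG1-labelled library 1, and 1 with no filter, without control 1 or without control 2.

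Endothelial markers, beside ERG and FLI1, summed to 60.6 and 64.0 CPM in the controls and 50.9 and 49.5 CPM in the BRG1-labelled libraries, most of it from FLT1. TEK and ROBO4 had 0 reads in every library, CDH5 1 read and KDR 2 reads in all, while 1 of 9 tested rose (PECAM1, from 2.86 ± 0.53 to 6.67 ± 0.53 CPM) and 2 fell (SOX17, from 4.33 ± 0.26 to 0.51 ± 0.04 CPM, and FLT1). Without FLT1 the sum was 24.7 and 19.7 CPM in the controls and 23.8 and 22.9 CPM in the BRG1-labelled libraries, so that the groups overlapped. Of the 9 tested, 4 had both BRG1-labelled libraries above both controls and 3 below (77.8% without overlap, beside 73.2% of all genes tested). Over all genes tested 21.0% rose and 23.6% fell, the shares to read beside the counts of each marker list. Leukocyte markers summed to 108, 104, 61.0 and 56.6 CPM, mostly CD14; PTPRC had 0 reads, 4 of 9 tested fell (CD14, CORO1A, LCP1 and TYROBP) and 1 rose (ITGB2, which did not pass without BRG1-labelled library 1, with the span trend removed, in DESeq2 or in limma-voom). Melanocyte and Schwann cell markers, 7 in the files, summed to 0.943 and 1.5 CPM in the controls and 0.357 and 0.0802 CPM in the BRG1-labelled libraries. Fibroblast markers were abundant in every library, at 24910 and 28260 CPM in the controls and 35720 and 35770 CPM in the BRG1-labelled libraries. Of 10 tested 7 rose, among them FAP (1.58 ± 0.21), DCN (1.41 ± 0.11) and LUM (1.23 ± 0.11). VIM (-0.27 ± 0.12), PDGFRB (-0.22 ± 0.13) and COL3A1 (-0.21 ± 0.12) had negative log2 fold changes and did not pass. Thus 0 fell in edgeR (1 at an unadjusted p under 0.05, 1 in DESeq2 and 0 in limma-voom). The count of falls was 3 without control 1, 2 without control 2, and 1 with no filter or with the span trend removed. The part of other cell types in the ETS values was not tested beyond these levels.

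Among the 10 genes, 4 lie in 2 neighbouring pairs. On chromosome 13, ERG and ETS2 are 162 kb apart, and their log2 fold changes were 1.62 and 0.08. On chromosome 9, ETS1 and FLI1 are 101 kb apart, with -0.43 and -1.92. Within 500 kb of ERG, 3 genes matched by symbol were tested, of which BRWD1, a bromodomain protein, rose (0.78 ± 0.13; adjusted p = 0.00023, edgeR), and ETS2 and PSMG1, a proteasome assembly chaperone, did not pass. Around ELF3, 13 neighbours were tested: 3 rose, among them LMOD1, an actin nucleator of smooth muscle that lies 43.0 kb away (2.58 ± 0.20; adjusted p = 1.13e-07, edgeR), 5 fell, and 5 did not pass, where 21.0% of all genes rose and 23.6% fell. The nearest neighbour, the aminopeptidase gene RNPEP at 2.33 kb, fell by 0.37 ± 0.10.

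Among 9573 other genes with a symbol and a mean of at least 2 on the log2 CPM scale, those with the profile nearest to ERG over the 4 libraries were TEAD1, FAP and ARHGAP28. Their distances were 0.02, 0.06 and 0.07 (Euclidean distance of log2 CPM centred on each gene's mean), and their log2 fold changes 1.63, 1.58 and 1.56. Nearest to ELF3 were UPP1, MT1X and LIF, at distances of 0.14, 0.24 and 0.31 and log2 fold changes of -2.96, -2.67 and -2.74. With 4 libraries in 2 groups, such a distance reflects little beyond the size of the difference between the groups.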

How the data were processed

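For each library the authors deposited read counts per gene under Ensembl identifiers, as whole numbers without normalization. The submitters' processing notes list STAR, FastQC, edgeR, DESeq2, Cufflinks and SAMtools, without their roles, and the build Sscrofa11.1. The read counter, strand setting and annotation release are not given in the sources used here. Closing rows that name no gene (reads outside genes, 6.11% to 10.5%; on more than 1 gene, 1.90% to 2.33%; aligned to several places, 1.42% to 1.80%) stayed out of library sizes and tests.

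Counts were fitted in R 4.3.3 with edgeR 4.0.16: filterByExpr (minimum count 10, minimum total 15), TMM scaling, and the quasi-likelihood F test of BRG1-labelled against control libraries on all 4, adjusted by Benjamini-Hochberg over 14617 genes with a threshold of 0.05. Fold changes use a prior count of 0.125, and the SE is the unshrunk log2 fold change over the square root of F. Symbols came from the files (17508 genes) or, for 223 more, from a name table; coordinates and spans came by symbol from RefSeq on Sscrofa11.1 (77.4% of genes tested had a span).

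Replicates differed by more than counting noise (chi-square per degree of freedom 30.1 and 4.80). The genes, lists and tests were chosen with earlier results of these data known. Named were the 10 ETS genes and every other ETS gene past the threshold. Each list gave examples among the up to 5 smallest adjusted p. Genes that did not pass or were not tested were named after their values were seen. So were a few of the others (ATXN1L, BRAF, NOS2, COL1A1, COL1A2 and the neighbours). Alternatives were DESeq2 1.42.0, voom from limma 3.58.1, 3 scalings, 2 other filters, the replicate number as a block, offsets that take out the trend with genomic span, and leaving out each library, where the lone library of a group is assumed to vary like the other group. Genes of the lists that are not named are not reported singly here.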

Additional observations from a re-analysis of the deposited data

How the results depend on the processing

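Over 13 alternatives the log2 fold change ran from -3.03 to -2.60 for ELF3, from -0.91 to -0.54 for ELK3 and from 1.30 to 1.84 for ERG. For SMARCA4 it was lowest with the span trend removed, at -0.24. With scaling by library size alone 4820 genes were higher and 2139 lower, of the 10 ETS genes 2 were higher and 2 lower, 4 other ETS genes were higher, 10 partners and regulators passed, and SMARCA4 was at 0.18; with upper quartile scaling 2 other ETS genes were higher and SMARCA4 was at 0.061; with the span trend removed 1 other ETS gene was higher and of the 10 genes 6 were lower. Leaving out each library in turn gave 1908 to 3673 genes higher and 2177 to 4321 lower, 2 to 5 of the 10 ETS genes lower, 0 to 2 other ETS genes higher, 5 to 12 partners and regulators, 4 to 13 cascade genes, 0 to 2 epithelial (rises 0 to 2, falls 0 to 1) and 0 to 1 melanocyte and Schwann cell markers past the threshold, SMARCA4 from -0.15 to 0.048, EP300 from -0.13 to 0.29 and CIC from -0.20 to 0.18. With at least 1 CPM in 2 libraries FLI1 was not tested and 0 epithelial and 0 melanocyte and Schwann cell markers passed, since fewer genes were tested; with no filter 2 of the latter passed. For the other changes the cause was not tested.

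With the replicate block 3189 genes were higher and 3505 lower, and of the 10 ETS genes 1 was higher and 4 were lower, as without it. Deviations of libraries with the same number correlated at -0.04 across genes. With only 2 libraries per group, that value cannot show whether libraries with the same number shared a culture or preparation. Depth limits FLI1 (6 to 34 reads), SPI1, EHF and the markers of other cell types; 2 libraries per group limit all.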
